A study of Mus musculus with 15 samples.

Results

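Cumulus cells, the granulosa cells that surround the oocyte, were profiled on 1-colour expression microarrays at 3 stages of the mouse follicle, and the Wnt ligands, their receptors, their secreted inhibitors and the first steps of the pathway inside the cell were followed across them. The genes were taken by symbol from the table of probes called present that the authors deposited: all Wnt, frizzled, Sfrp, Dickkopf, dishevelled and R-spondin genes with a row there, plus Lrp5, Lrp6, Axin1, Axin2, Tcf7, Tcf7l1, Tcf7l2, Lef1, Wif1, Lgr4, Lgr5, Apc and Gsk3b. This gave 38 of the 15059 genes named in the table, on 43 of its 20855 probes, and each gene was read from its probe with the highest mean over the 15 arrays. The genes Axin2, Lef1, Wif1 and Apc had no row in the table. All mice were B6CBAF1/J hybrids. NC1 cells came from unexpanded cumulus-oocyte complexes of juvenile mice (3 weeks), whose prophase I oocytes can resume meiosis but have little or no developmental competence. C1 cells came from unexpanded complexes of adults (8 weeks), whose prophase I oocytes are competent. C2 cells came from expanded complexes flushed from the oviduct of superovulated adults (8 weeks) primed with PMSG and then hCG, with oocytes in metaphase II, and were freed with hyaluronidase. There were 5 arrays per stage. Each was made from a separate pool of mice, so that an array stands for several females. NC1 and C1 differ in age, and C1 and C2 differ in hormone treatment, ovulation, site of collection and enzyme treatment at once, which cannot be told apart here.

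Wnt proteins are lipid-modified secreted ligands. They bind frizzled receptors together with the co-receptors LRP5 and LRP6, dishevelled proteins relay the signal, and the complex of axin, APC and GSK3 that marks beta-catenin for destruction is then inhibited, so that beta-catenin can act with TCF/LEF factors in the nucleus. Other Wnt ligands act without beta-catenin on cell polarity and movement. Sfrp proteins carry a frizzled-like domain and bind Wnt ligands outside the cell, most Dickkopf proteins block LRP5 and LRP6, and R-spondins, through LGR receptors, keep frizzled receptors at the surface. In the ovary, Wnt4 and Rspo1 are known for their role in ovarian differentiation, and Sfrp4 is known as a gene of the periovulatory and luteal phases.

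Values are log2 intensities from which the array's median over the tested probes was subtracted, so that 0 is the level of the median probe, and they are comparable between arrays but not between probes. A probe was tested only where 4 or more of the 5 arrays of each stage had it well above background. Of the 38 genes, 29 were tested and 9 were not, and 17323 probes were tested in all. From 18366 to 24493 gene probes per array were well above background, with the highest number in C1 replicate 4, and the number of arrays limits the precision. Calls were made with limma at an adjusted p under 0.01 over all tested probes. Over the tested Wnt genes the median SD was 0.28, 0.31 and 0.19 in the NC1, C1 and C2 arrays.

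Between C1 and C2 the genes moved in opposite directions. From C1 to C2, the ligands Wnt6, Wnt5b and Wnt5a, the receptors Fzd4, Fzd3 and Fzd2 and the Dickkopf genes Dkk3 and Dkkl1 fell by more than 1 log2 unit, whereas the ligand Wnt4, the receptors Fzd1 and Lgr4 and the nuclear factor Tcf7 rose by more than that. Among the genes that were not tested, Sfrp2 was well above background on all C2 arrays and on 1 other, and Rspo1 was so on all arrays but those of C2. Between NC1 and C1 the changes were few, and that of Sfrp4 was by far the largest among the tested Wnt genes. Over the 3 stages, 20 of the 29 tested genes were called by the moderated F-test (69.0%), against 51.6% of all tested probes. Between NC1 and C1, 3 of 29 were called (10.3%), against 2.52% of all tested probes, with 2 genes higher (background 1.75%) and 1 lower at C1 (background 0.768%). Between C1 and C2, the calls came to 16 of 29 (55.2%), beside 47.6%, with 5 genes higher at C2 (background 25.4%) and 11 lower (background 22.2%). Between NC1 and C2, 19 of 29 were called (65.5%), against 51.5%, with 8 genes higher (background 26.5%) and 11 lower at C2 (background 24.9%). The share called between C1 and C2 was thus near that of all probes. The median difference of the 29 genes was -0.09 from C1 to C2, where that of all tested probes was 0.02. The stages did not overlap for 5 of the 29 genes between NC1 and C1 (background 5.98%), for 17 between C1 and C2 (background 43.9%) and for 15 between NC1 and C2 (background 48.9%). The balance of directions depended on the scaling. With arrays centred on the median of all gene probes, which moved the median difference of all tested probes to 0.33 from C1 to C2, 6 genes were called up and 7 down from C1 to C2, and 8 were higher and 7 lower at C2 than at NC1. With 75th percentile scaling, 6 were higher and 13 lower at C2 than at NC1. Between NC1 and C1, the gene called lower lost its call in that centring and with spike-in scaling. In bulk RNA, fewer cells of a type and less RNA per cell cannot be told apart.

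**Figure D1:**
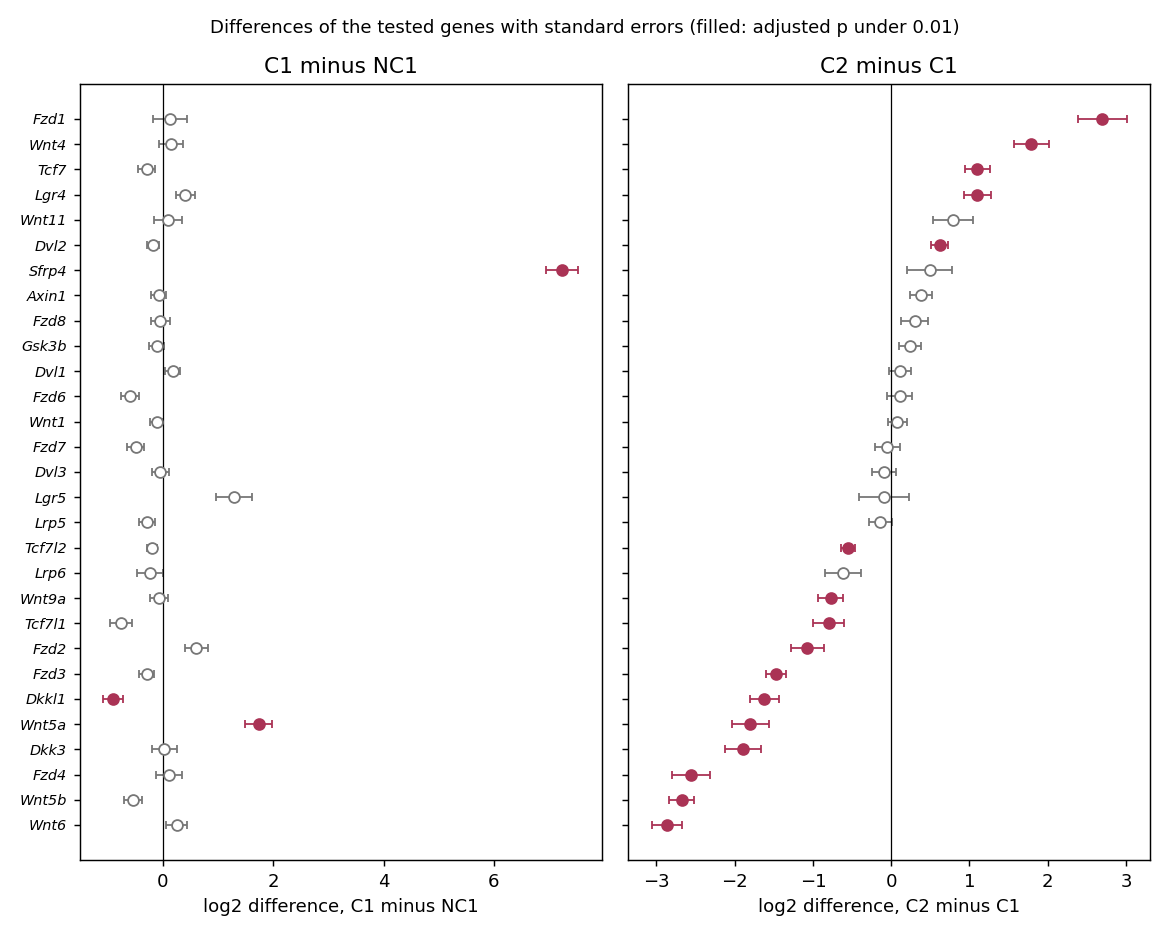
Log2 differences of the 29 tested Wnt pathway genes, C1 minus NC1 on the left and C2 minus C1 on the right, with the fitted difference as a point and its standard error as a bar; filled points were called with limma at an adjusted p under 0.01. Sfrp4 stands at 7.24 on the left, where 3 genes were called, and on the right the genes spread from Wnt6 at -2.87 to Fzd1 at 2.70.

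Promoter sequences of 23 of the 38 genes were found in RefSeq (GRCm38.p6), as 28 windows. Shown are the 250 bases before the transcription start, 5′ to 3′ on the strand of the gene, for genes with large changes at C2 in each direction: Sfrp2 and Fzd1, which were high at C2, and Rspo1 and Wnt5b, which were low there. The windows lie at chr3:83766071-83766320 (plus strand) for Sfrp2, chr5:4758217-4758466 (minus strand) for Fzd1, chr4:124986180-124986429 (plus strand) for Rspo1 and chr6:119449387-119449636 (minus strand) for Wnt5b, the last at 1 of its 3 listed starts. Capitals mark matches to the TCF/LEF motif, searched as CTTTGAT or CTTTGTT on both strands.
Sfrp2: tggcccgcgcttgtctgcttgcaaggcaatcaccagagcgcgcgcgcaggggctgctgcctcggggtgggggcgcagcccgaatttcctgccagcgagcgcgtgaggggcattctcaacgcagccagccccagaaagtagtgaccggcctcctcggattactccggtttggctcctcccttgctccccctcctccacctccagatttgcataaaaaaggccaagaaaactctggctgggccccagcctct
Fzd1: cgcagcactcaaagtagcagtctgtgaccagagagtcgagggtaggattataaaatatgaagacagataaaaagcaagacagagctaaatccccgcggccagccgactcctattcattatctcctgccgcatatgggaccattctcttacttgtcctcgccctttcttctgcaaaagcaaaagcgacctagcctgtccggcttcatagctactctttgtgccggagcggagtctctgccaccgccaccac
Rspo1: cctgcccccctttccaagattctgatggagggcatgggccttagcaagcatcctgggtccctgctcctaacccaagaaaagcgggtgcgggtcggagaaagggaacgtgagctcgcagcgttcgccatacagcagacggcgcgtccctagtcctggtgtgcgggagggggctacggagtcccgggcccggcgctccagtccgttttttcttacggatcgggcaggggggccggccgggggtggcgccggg
Wnt5b: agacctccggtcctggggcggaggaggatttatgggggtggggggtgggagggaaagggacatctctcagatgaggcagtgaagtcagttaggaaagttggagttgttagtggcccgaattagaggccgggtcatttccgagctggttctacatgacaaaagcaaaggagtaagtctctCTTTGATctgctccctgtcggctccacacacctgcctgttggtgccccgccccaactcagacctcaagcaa
Of these 4 windows, that of Wnt5b held a match, and the windows at the other 2 Wnt5b starts held none. The window of Wnt6, the tested gene with the largest fall from C1 to C2, is not shown and held none. In windows that also took in the 50 bases after the start, 4 of 28 held a match (14.3%), at Fzd7, Tcf7l2, Wnt11 and Wnt5b, against 9.33% of 32851 promoters. A match is a description of the sequence and not a binding site.

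Among the Wnt ligands, 7 of 10 were tested, and 5 of these were called between C1 and C2 (71.4%, beside 47.6%), 1 higher and 4 lower at C2. Wnt4, a ligand known for its part in ovarian differentiation, was at -0.16, -0.75, -0.11, 0.36 and 0.16 on the NC1 arrays. It was at 0.53, -0.54, -0.15, 0.56 and -0.18 at C1 and at 1.68, 2.11, 1.76, 1.71 and 1.92 at C2. All C2 arrays lay above all others, and NC1 and C1 overlapped. Wnt4 was 3.46-fold higher at C2 than at C1 (log2 difference 1.79, SE 0.22, limma adjusted p = 2.94e-06).

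Wnt5a, a ligand mostly tied to signalling without beta-catenin, was raised at C1 alone. It was at -2.83, -3.59, -3.59, -3.59 and -3.77 at NC1, at -1.62, -1.20, -2.63, -1.97 and -1.25 at C1 and at -3.34, -3.91, -3.56, -3.34 and -3.53 at C2. Each C1 array was above every NC1 and every C2 array, and NC1 and C2 overlapped. The rise from NC1 was 3.34-fold (log2 difference 1.74, SE 0.24, limma adjusted p = 0.000263) and the fall to C2 was 3.49-fold (-1.80, SE 0.24, adjusted p = 7.19e-06). The difference between C2 and NC1 was -0.06 (SE 0.24, limma adjusted p = 0.832). Within the 4 slides the rise ran from 1.05 to 2.34.

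Wnt5b, the close relative of Wnt5a, was highest at NC1. It was at 2.46, 2.22, 2.72, 2.64 and 2.78 at NC1, at 2.08, 1.86, 1.97, 2.17 and 2.09 at C1 and at -0.46, -0.25, -0.50, -1.12 and -0.92 at C2. The C1 values lay below those of NC1 without overlap, but this difference of -0.53 was not called (limma adjusted p = 0.0627). At C2, Wnt5b was 6.42-fold lower than at C1 (log2 difference -2.68, SE 0.16, limma adjusted p = 5.54e-10).

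Wnt6, a further ligand of the family, was at 0.23, -0.42, 0.24, 0.06 and 0.17 at NC1 and at 0.40, -0.47, 0.61, 0.38 and 0.66 at C1. At C2 it was at -2.55, -2.56, -2.39, -2.76 and -2.51. The NC1 and C1 arrays overlapped, replicate 2 being the lowest of each, and the C2 arrays lay far below and close together. Wnt6 was 7.30-fold lower at C2 than at C1 (log2 difference -2.87, SE 0.19, limma adjusted p = 2.02e-09), the largest fall among the tested Wnt genes.

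Wnt9a was lower at C2 than at C1 by a smaller step (log2 difference -0.77, SE 0.16, limma adjusted p = 0.000534), a call lost with quantile normalization (adjusted p = 0.0263) and with arrays centred on the median of all gene probes (adjusted p = 0.0872). It was dim at C2, where 4 of the 5 arrays were well above background. Wnt11, a ligand linked to planar cell polarity, was higher at C2 than at NC1 by 0.89 (SE 0.25, limma adjusted p = 0.00496), with overlapping stages. This call was lost under 10 of 26 alternatives, among them omission of NC1 replicate 3, 4 or 5 or of C2 replicate 4 or 5 (adjusted p from 0.0101 to 0.0165), and the difference was 0.54 (adjusted p = 0.0702) without C2 replicates 4 and 5 together. Wnt1 was at -2.47 ± 0.17 at NC1, -2.58 ± 0.16 at C1 and -2.49 ± 0.19 at C2 (SD, n = 5), and was called in no comparison. A second, dimmer Wnt1 probe outside the table was well above background on no array.

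The other 3 ligands were dim at a stage and were not tested. Wnt7b was well above background on all 5 C2 arrays and on no array of NC1 or C1. It was at -2.56, -2.44, -2.70, -3.43 and -3.17 at C2, where the highest reading at NC1 was -5.31 and the highest at C1 was -5.58. Set against the lowest signal well above background on the dim arrays, it was at least 3.64-fold higher at C2 than at NC1 and at least 3.83-fold higher than at C1. With normexp background correction these bounds were 1.03 and 1.00 on the log2 scale, against 1.86 and 1.94. Wnt10b, a ligand that acts through beta-catenin, was well above background on 3 NC1 arrays and on all C1 and C2 arrays. Its values were -3.92, -4.29, -4.37, -4.46 and -4.54 at NC1, -1.64, -0.64, -1.55, -2.23 and -1.25 at C1, and -0.76, -0.32, 0.28, -0.41 and -0.04 at C2. NC1 lay apart below, and C1 and C2 overlapped. Wnt10a was well above background on no NC1 array, on 3 C1 arrays and on 4 C2 arrays.

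**Figure D2:**
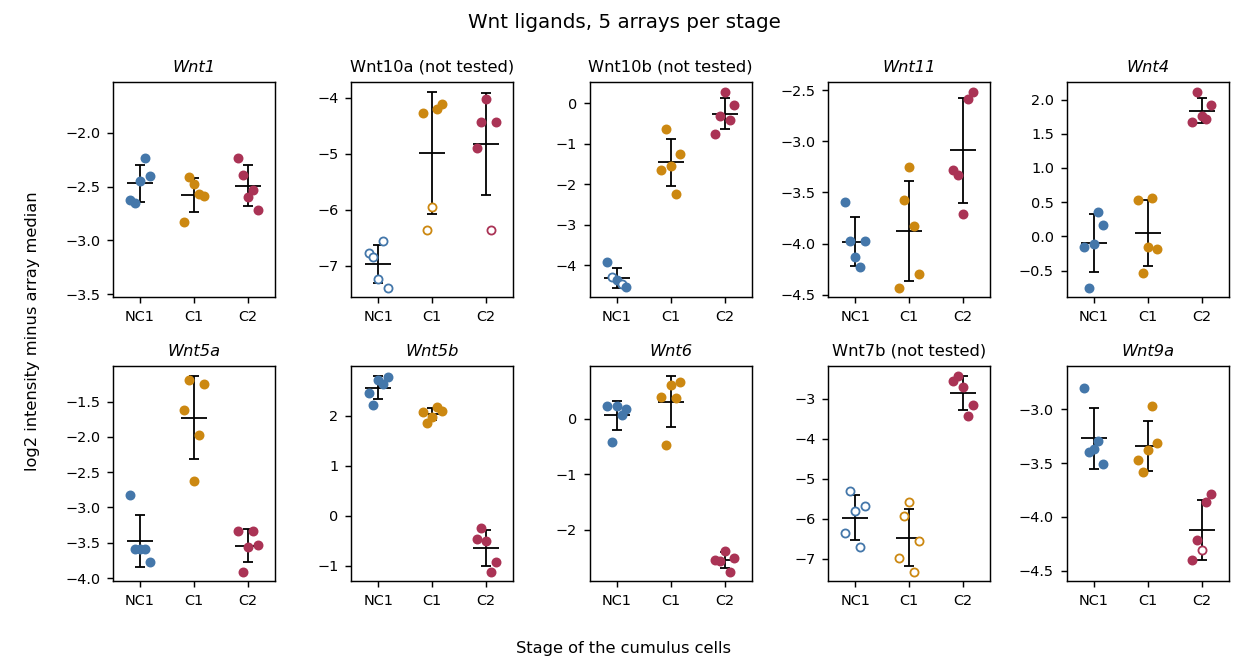
Log2 intensity minus array median of the 10 Wnt ligands on each array at NC1, C1 and C2 (5 arrays per stage), with the mean as a dash, the SD as a bar and open points for arrays not well above background. Each panel has its own axis and levels are not comparable between panels; Wnt4 and Wnt7b are highest at C2, Wnt5b and Wnt6 lowest there, and Wnt5a is highest at C1.

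Of the 9 frizzled receptors, 7 were tested, and 4 were called between C1 and C2 (57.1%, near the 47.6% of all tested probes), with 1 rising and 3 falling. Fzd1 was at -1.36, -1.65, -1.51, -1.73 and -1.69 at NC1, at -1.82, -1.95, -1.69, -0.24 and -1.55 at C1 and at 0.54, 0.89, 1.09, 1.55 and 2.19 at C2. The C2 arrays lay above all others, and C1 replicate 4 stood between its own stage and C2. Fzd1 was 6.51-fold higher at C2 than at C1 (log2 difference 2.70, SE 0.31, limma adjusted p = 1.28e-06), and the difference was 3.01 without C1 replicate 4.

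Fzd4, a receptor known in blood vessels and in the corpus luteum, was at -0.64, -1.39, -0.23, 0.00 and -0.41 at NC1, at -0.43, -0.70, -0.79, -0.05 and -0.09 at C1 and at -2.44, -2.97, -3.10, -2.94 and -3.41 at C2. NC1 and C1 overlapped and C2 lay below both. It was 5.91-fold lower at C2 than at C1 (log2 difference -2.56, SE 0.24, limma adjusted p = 1.27e-07). Fzd3, a receptor tied to planar cell polarity, was at 0.99, 1.07, 1.37, 1.42 and 1.19 at NC1, at 0.54, 0.84, 0.92, 1.13 and 1.15 at C1 and at -0.33, -0.67, -0.67, -0.53 and -0.56 at C2. C2 lay below both other stages, which overlapped, with a 2.77-fold fall from C1 to C2 (log2 difference -1.47, SE 0.13, limma adjusted p = 6.23e-08).

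Fzd2 was at -0.85, -1.24, -0.25, -0.29 and -0.34 at NC1, at 0.14, -0.31, -0.55, 0.50 and 0.29 at C1 and at -0.98, -0.98, -1.32, -1.01 and -1.01 at C2. C1 and C2 did not overlap, while NC1 spanned values of both. It was 2.10-fold lower at C2 than at C1 (log2 difference -1.07, SE 0.21, limma adjusted p = 0.000349), which was lost with arrays centred on the median of all gene probes (-0.76, adjusted p = 0.0375). Fzd7 was lower at C2 than at NC1 by a difference of -0.54 with overlapping stages (SE 0.16, limma adjusted p = 0.00633), and the call was lost under 14 of 26 alternatives, among them omission of NC1 replicate 3, 4 or 5 or of C2 replicate 1, 2 or 3 (adjusted p from 0.011 to 0.0202). Fzd6 was called over the 3 stages (limma adjusted p = 0.00758) but in no pairwise comparison, with -1.36 ± 0.29 at NC1, -1.94 ± 0.31 at C1 and -1.84 ± 0.12 at C2 (SD, n = 5). Without C1 replicate 3 it was called lower than at NC1 both at C1 (-0.70, adjusted p = 0.00964) and at C2 (adjusted p = 0.00679). Fzd8 was called in no comparison. Fzd5 and Fzd9 were well above background on too few arrays to be tested, Fzd9 on 3 arrays each of NC1 and C1 and on all 5 of C2.

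Neither co-receptor was called between successive stages, although Lrp6 was called lower at C2 than at C1 with 75th percentile scaling (adjusted p = 0.00849) and quantile normalization (adjusted p = 0.00746). Lrp5 was at -0.29 ± 0.34, -0.57 ± 0.24 and -0.71 ± 0.06 at NC1, C1 and C2 (SD, n = 5), and without NC1 replicate 2 it was called lower at C2 than at NC1 (-0.54, adjusted p = 0.00334). Lrp6 was at 2.48 ± 0.56, 2.25 ± 0.34 and 1.63 ± 0.24, and its difference of -0.85 between C2 and NC1 (SE 0.23, limma adjusted p = 0.00423) was not seen with its second probe (-0.17, adjusted p = 0.421). Within slides this difference ran from -1.63 to 0.15, and omission of NC1 replicate 3, 4 or 5 or of C2 replicate 1 or 2 also ended the call (adjusted p from 0.0103 to 0.0135).

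**Figure D3:**
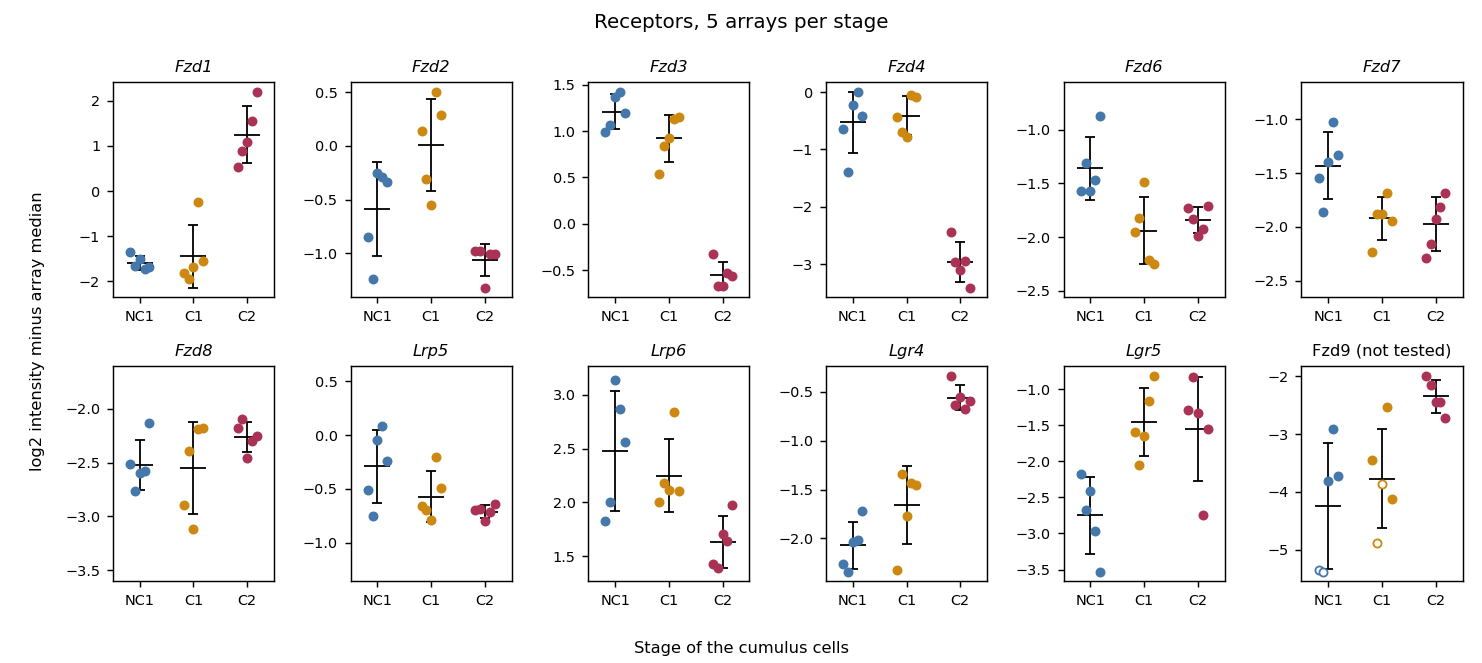
Log2 intensity minus array median on each array at NC1, C1 and C2 (5 arrays per stage) for 8 frizzled receptors, the co-receptors Lrp5 and Lrp6 and the R-spondin receptors Lgr4 and Lgr5, with the mean as a dash, the SD as a bar and open points for arrays not well above background. The C2 arrays of Fzd1 lie between 0.54 and 2.19, above all others, and those of Fzd4 between -3.41 and -2.44, below all others.

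Among the genes of the rule, the widest differences were those of Sfrp4 and Sfrp2, which bind Wnt ligands. Sfrp4 was at -2.91, -2.95, -2.84, -3.07 and -2.91 at NC1, where it was well above background on every array. At C1 it was at 4.49, 4.43, 2.81, 5.16 and 4.60, and at C2 at 4.94, 4.58, 4.77, 4.80 and 4.85. All C1 and C2 arrays lay at least 5 log2 units above those of NC1, and C1 overlapped C2, with C1 replicate 3 the lowest. Sfrp4 was 151-fold higher at C1 than at NC1 (log2 difference 7.24, SE 0.29, limma adjusted p = 2.12e-10), with 5.81 to 8.00 within the 4 slides and 7.61 without C1 replicate 3.

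Sfrp2, a relative of Sfrp4, was not tested. It was at -6.57, -6.63, -6.89, -6.71 and -7.27 at NC1, where no array was well above background. At C1 it was at -5.68, -5.38, -4.31, -1.90 and -5.04, and replicate 4 alone was well above background. At C2 it was at 3.41, 3.07, 2.87, 2.90 and 3.22, well above background on all arrays. It was at least 226-fold higher at C2 than at NC1, and with normexp background correction the bound was 6.54 on the log2 scale, against 7.82. C1 replicate 4 was also the array with the most probes above background.

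Sfrp1, a further inhibitor of this family, was dimmest at C2. It was well above background on all arrays of NC1 and C1 and on 2 of C2, with means of -3.02 ± 0.89, -3.51 ± 0.40 and -5.11 ± 0.66 (SD, n = 5), and was not tested. The lowest C1 array, at -4.10, lay just above the highest C2 array, at -4.13.

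Both Dickkopf genes were called lower at C2 than at C1, beside 22.2% of all tested probes. Dkk3, a divergent member of the family, was at 1.16, 0.85, 0.68, 0.84 and 0.69 at NC1, at 1.01, 0.92, 0.99, 1.07 and 0.39 at C1 and at -0.74, -1.36, -1.89, -0.42 and -0.66 at C2. NC1 and C1 overlapped and C2 lay below both. It was 3.71-fold lower at C2 than at C1 (log2 difference -1.89, SE 0.23, limma adjusted p = 2.43e-06).

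Dkkl1, a related gene best known from the testis, fell at each step. It was at 0.27, 0.19, 0.47, 0.68 and 0.29 at NC1, at -0.26, -0.59, -0.47, -0.03 and -1.21 at C1 and at -2.0, -2.02, -2.40, -2.09 and -2.13 at C2, with no overlap between any of the stages. The first step was 1.85-fold (log2 difference -0.89, SE 0.18, limma adjusted p = 0.00543) and the second 3.06-fold (-1.62, SE 0.18, adjusted p = 7.33e-07). The call of the first step was lost under 11 of 26 alternatives, with adjusted p values there from 0.0106 to 0.444. Among them were omission of NC1 replicate 1, 3, 4 or 5 and of C1 replicate 2 or 3 (adjusted p up to 0.0177).

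The R-spondins were at or near background at C2, and neither was tested. Rspo1, a ligand that amplifies Wnt signals, was at 0.53, -0.06, -0.84, -0.64 and -1.20 at NC1 and at 0.52, -0.61, 0.00, 0.20 and 0.16 at C1, well above background on all of these arrays. At C2 it was at -5.27, -6.84, -5.03, -5.41 and -4.73, and no array was well above background. It was at least 28.4-fold lower at C2 than at C1 and at least 20.1-fold lower than at NC1, and with normexp background correction these bounds were 3.46 and 2.95 on the log2 scale, against 4.83 and 4.33. Rspo2 was well above background on all arrays of NC1 and C1 and on 1 of C2, with means of -2.56 ± 0.87, -2.88 ± 0.69 and -5.59 ± 1.32 (SD, n = 5).

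Both R-spondin receptors of the rule, Lgr4 and Lgr5, were called higher at C2 than at NC1, beside 26.5% of all tested probes. Their relative Lgr6, in the lists of the wider pathway, was not tested and went the other way. It was well above background on 5 NC1 arrays, 3 C1 arrays and 1 C2 array, with means of -2.55, -3.98 and -5.14. Lgr4 was at -2.26, -2.34, -2.04, -2.02 and -1.72 at NC1, at -2.32, -1.34, -1.77, -1.43 and -1.45 at C1 and at -0.34, -0.64, -0.55, -0.68 and -0.59 at C2. The C2 arrays lay above all others and NC1 and C1 overlapped. Lgr4 was 2.15-fold higher at C2 than at C1 (log2 difference 1.1, SE 0.17, limma adjusted p = 3.19e-05), with an adjusted p of 0.0102 under spike-in scaling.

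Lgr5, better known as a marker of stem cells in epithelia, was at -2.18, -2.67, -2.41, -2.97 and -3.53 at NC1, at -1.60, -2.05, -1.65, -1.17 and -0.82 at C1 and at -1.29, -0.83, -1.33, -2.74 and -1.55 at C2. NC1 and C1 did not overlap, but the difference of 1.29 was not called (SE 0.32, limma adjusted p = 0.0262; 0.00664 without C2 replicate 4). That of 1.20 between C2 and NC1 was called (SE 0.32, limma adjusted p = 0.00419), with C2 replicate 4 inside the NC1 range, and the call was lost under 9 of 26 alternatives, among them omission of NC1 replicate 4 or 5 or of C2 replicate 1, 2 or 3 (adjusted p from 0.0107 to 0.0143).

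**Figure D4:**
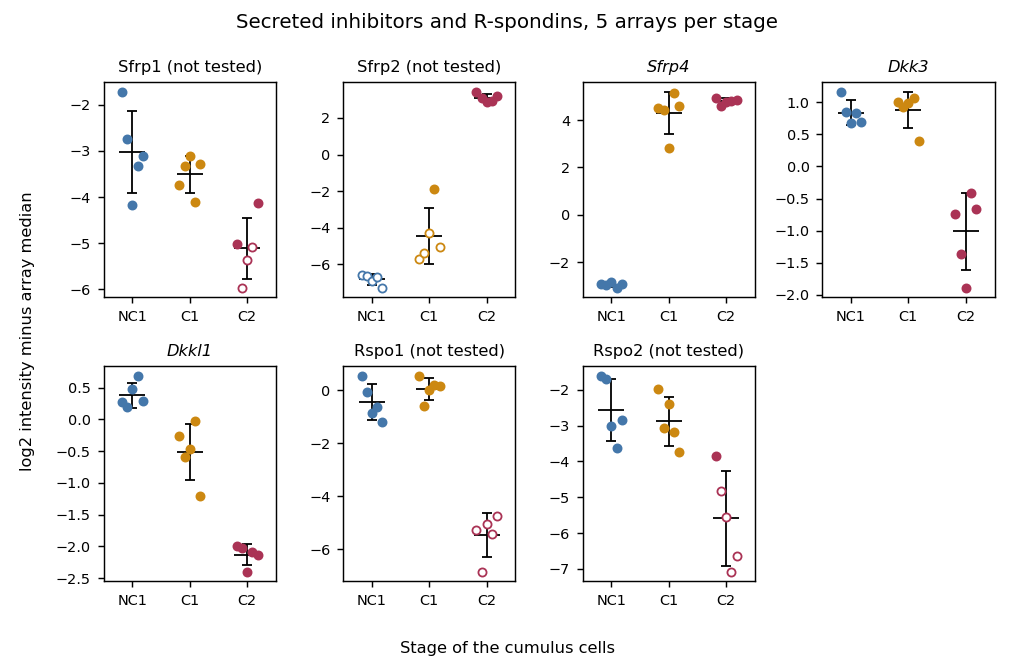
Log2 intensity minus array median on each array at NC1, C1 and C2 (5 arrays per stage) for the Sfrp genes, the Dickkopf genes and the R-spondins, with the mean as a dash, the SD as a bar and open points for arrays not well above background. Sfrp4 lies near -2.94 at NC1 and near 4.79 at C2, Sfrp2 is well above background on 1 C1 array and on all C2 arrays, and Rspo1 is well above background on no C2 array.

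Of the 5 dishevelled and destruction complex genes, 1 was called between C1 and C2, beside 47.6% of all tested probes. Dvl2, a relay from frizzled receptors, was higher at C2 than at C1 by 0.62 (SE 0.11, limma adjusted p = 0.000193; 0.211 with spike-in scaling), and Dvl1 and Dvl3 were called in no comparison, except that Dvl1 was higher at C2 than at NC1 without NC1 replicate 1 (0.43, adjusted p = 0.00265). Axin1, the scaffold of the destruction complex, and Gsk3b, its kinase, were called in no comparison. Gsk3b was at 1.99 ± 0.30, 1.88 ± 0.14 and 2.11 ± 0.19 at NC1, C1 and C2 (SD, n = 5), and its 3 probes differed by 0.11 to 0.24 between C1 and C2.

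The 3 TCF factors with a row, which carry the signal to the genome, were all called between C1 and C2, beside 47.6% of all tested probes. They moved in opposite directions. Tcf7 was at -0.94, -0.80, -0.88, -0.81 and -0.80 at NC1, at -0.82, -1.46, -1.01, -0.94 and -1.46 at C1 and at -0.50, 0.00, -0.16, 0.05 and 0.43 at C2. The C2 arrays lay above all others. Tcf7 was 2.14-fold higher at C2 than at C1 (log2 difference 1.1, SE 0.16, limma adjusted p = 1.81e-05), and its second probe differed by 1.05.

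Tcf7l1, known as a repressor among these factors, was at -1.40, -1.74, -1.14, -0.84 and -1.53 at NC1, at -2.12, -2.54, -2.36, -1.53 and -1.85 at C1 and at -3.20, -2.92, -2.98, -2.69 and -2.58 at C2. C2 lay below C1 without overlap, while NC1 and C1 overlapped. The difference from C1 to C2 was -0.80 (SE 0.20, limma adjusted p = 0.00246) and that from NC1 to C2 was -1.54 (SE 0.20, adjusted p = 3.84e-06). The first was lost with quantile normalization (adjusted p = 0.0227), with spike-in scaling (adjusted p = 0.0152), with no filter on dim probes (adjusted p = 0.0104) and with arrays centred on the median of all gene probes (adjusted p = 0.145). Tcf7l2 was lower at C2 than at C1 by a difference of -0.55 (SE 0.09, limma adjusted p = 0.000108), a call lost with arrays centred on the median of all gene probes (-0.24, adjusted p = 0.269) and with spike-in scaling (adjusted p = 0.0425). Its second probe, at -0.52, was not called (adjusted p = 0.102).

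The symbols of the rule name 58 genes with a probe on the arrays, and 20 of them had no row in the deposited table. Of these 20, 14 were well above background on no array, among them Axin2, a common readout of beta-catenin signalling, and the inhibitors Wif1, Dkk1 and Dkk2. Lef1 was well above background on 1 array and Apc on at most 7 of 15.

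Beyond these, 84 genes of the wider pathway had a probe, in 5 lists, and 55 were tested. The others were well above background on too few arrays to be tested. Of these, Frzb, Lrp4 and Daam2 were well above background on all arrays of NC1 and C1 and on none of C2. Cthrc1 and Fosl1 were so on no NC1 array, on 1 C1 array and on all C2 arrays. At C2, 29 of the 55 were called against C1, with 19 higher and 10 lower at C2, beside 47.6% of all tested probes. This split was 19 to 4 with arrays centred on the median of all gene probes and 8 to 8 with spike-in scaling. Between NC1 and C2, 29 were called (background 51.5%), 17 higher (background 26.5%) and 12 lower (background 24.9%), and the split was 16 to 7 in that centring. Between NC1 and C1, 2 were called, both higher at C1, beside 2.52% of all tested probes, and with quantile normalization 2 were higher and 1 lower. These 2 were the Groucho corepressors Tle3, which rose by 1.31 to C1 (SE 0.18, limma adjusted p = 0.00029) and by a further 1.67 to C2, and Tle2, which rose by 1.38 and 0.85.

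Of the 9 tested nuclear cofactors, 5 were called between C1 and C2 (55.6%, near the 47.6% of all tested probes), all 5 higher at C2 (background 25.4%). Beside Tle3 and Tle2 they included Bcl9l, a bridge from beta-catenin to Pygopus proteins, at 1.09 (SE 0.15, limma adjusted p = 1.19e-05), Pygo2 at 0.76 (adjusted p = 6.69e-06), and Ctbp1, a corepressor, at 0.40 (adjusted p = 0.00488). Of the 8 tested planar cell polarity genes, 5 were called (62.5%, beside 47.6%), with 4 lower at C2 (background 22.2%) and 1 higher. Vangl2 (-1.13), Prickle1 (-1.04) and Celsr1 (-1.22), all core polarity genes, and Scrib (-0.62) fell, and Prickle3 rose by 1.90 (SE 0.11, limma adjusted p = 3.90e-10). The calls of Celsr1 and Vangl2 were lost with arrays centred on the median of all gene probes (adjusted p = 0.0122 and 0.0224), and those of Bcl9l, Tle2 and Pygo2 with spike-in scaling (adjusted p from 0.0134 to 0.101). Ctbp1 and Scrib were not followed one by one under the alternatives.

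Of the 22 tested cytoplasmic regulators, 10 were called between C1 and C2 (45.5%), about the share of all tested probes (47.6%), with 8 higher and 2 lower at C2. Frat1 and Frat2, which bind GSK3, rose by 1.17 and 1.66, and Nkd1, an antagonist of dishevelled and itself a target of the pathway, fell by 2.68 (SE 0.26, limma adjusted p = 2.09e-07). The other gene that fell was Cby1 (-0.61), an antagonist of beta-catenin. Dact3, a dishevelled antagonist, was called between C2 and NC1 (-1.25, adjusted p = 2.03e-05). Of the 10 tested secretion and surface genes, 4 were called, beside 47.6% of all tested probes. Porcn, the enzyme that acylates Wnt ligands, rose by 1.52 (limma adjusted p = 1.32e-07), and Kremen1, a Dickkopf receptor, rose by 1.18. Ptk7 and Ryk, Wnt co-receptors outside the frizzled family, fell by 1.33 and 0.39. The call of Ryk (adjusted p = 0.00727) was lost under 12 of 26 alternatives, among them centring on the median of all gene probes (-0.08, adjusted p = 0.761) and omission of C1 replicate 1, 2, 4 or 5 or of C2 replicate 1, 2 or 3 (adjusted p from 0.0111 to 0.021). Of the 6 tested genes often listed as transcriptional targets, 5 were called (83.3%, beside 47.6%). Plaur (3.28), Ppard (1.21) and Myc (0.93) rose and Birc5 (-1.21) and Jun (-0.78) fell from C1 to C2. The limma adjusted p of Myc was 0.0451 under spike-in scaling. Of the untested targets, Ccn5 was well above background on no NC1 array and on all C1 and C2 arrays. Fosl1, Cd44 and Ccn4 had means of -5.99, -4.20 and -3.66 at C1 and of -3.27, -1.95 and -0.99 at C2. Ccnd1 and Sp5 had lower means at C2 (-6.23 and -5.88) than at C1 (-3.94 and -4.07). Bambi and Mmp7 were well above background on no array.

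**Figure D5:**
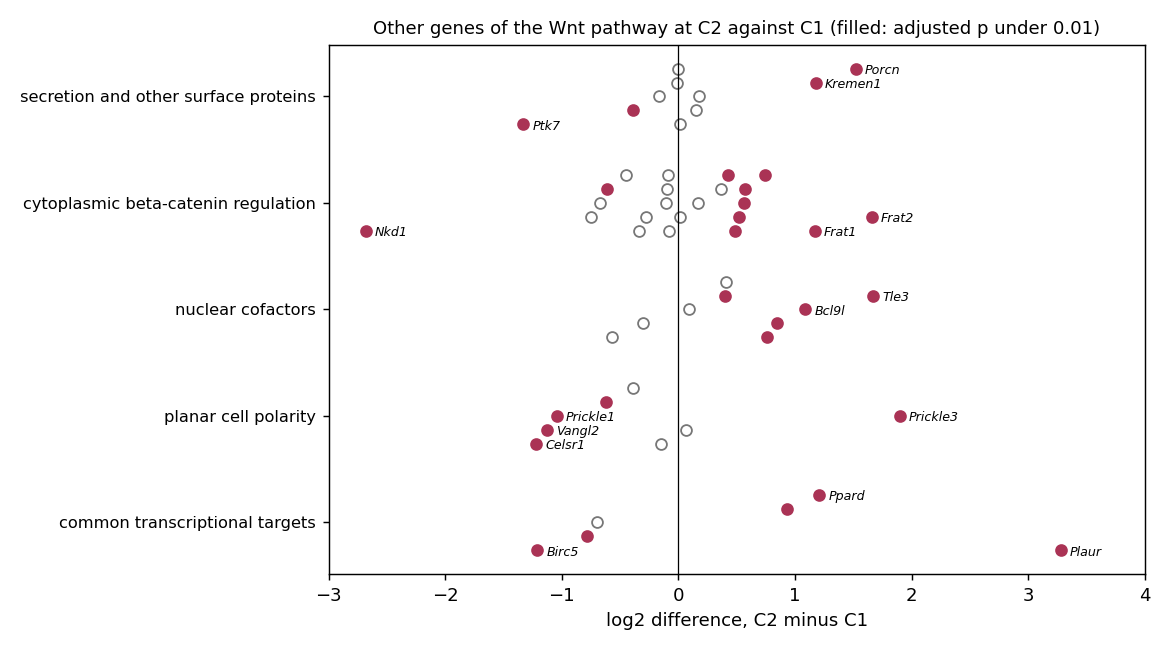
Log2 differences, C2 minus C1, of the 55 tested genes in 5 lists of the wider Wnt pathway, 1 point per gene, filled where called with limma at an adjusted p under 0.01. The 5 called nuclear cofactors all lie to the right of 0, and 4 of the 5 called planar cell polarity genes lie to the left.

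Markers of cumulus cells and of other cell types moved over the same stages, given here as the log2 of the summed linear values of each list. The cumulus and granulosa list of 10 genes, with Foxl2 and Inha well above background on every array, lay between 7.64 and 8.03 at NC1, 7.73 and 8.00 at C1 and 5.44 and 5.79 at C2, and 8 of its 9 tested genes fell from C1 to C2 (88.9%, background 22.2%). The exception was Foxl2, with means of 4.21, 4.03 and 4.06 at NC1, C1 and C2, which was called in no comparison. The theca and stroma list of 8 genes lay between 3.85 and 5.90, 3.64 and 4.25, and -0.20 and 0.22, with all 6 tested genes called lower at C2 than at C1 (background 22.2%) and with Lum and Pdgfra well above background on no C2 array. The ovarian surface epithelium list of 6 genes lay between 0.38 and 2.14, 1.07 and 2.09, and -2.77 and -1.0, with Upk3b and Upk1b well above background on no C2 array. On all 5 C2 arrays these 3 lists lay below every NC1 and C1 array. The same held for Rspo1, Rspo2, Wnt5b, Wnt6, Wnt9a, Dkk3, Dkkl1, Fzd3, Fzd4, Tcf7l1 and Tcf7l2. In contrast, Wnt4, Fzd1, Lgr4, Tcf7, Sfrp2 and Wnt7b lay above every NC1 and C1 array on all 5 C2 arrays. Of all tested probes, 43.9% did not overlap between C1 and C2, in either direction. The share that lay below or above both other stages was not counted, and Rspo1, Rspo2, Sfrp2 and Wnt7b were not tested. The oocyte list of 12 genes lay between 3.68 and 5.67 at NC1 and between 3.71 and 5.36 at C1. At C2 it was at 4.10, 3.76 and 3.89 in replicates 1 to 3, inside these ranges, and at -0.43 and -0.26 in replicates 4 and 5, which stood apart. This sum too follows its brightest genes. In C2 replicates 1 to 3, Gdf9, H1f8, Oosp1 and Mos stayed inside their NC1 and C1 ranges. In the same replicates Zp1 (-3.73, -3.68 and -3.48), Zp2, Zp3, Npm2, Nlrp5 and Kpna7 lay below every NC1 and C1 array. Of the 4 tested oocyte genes, Npm2 was called lower at C2 than at C1 (-2.89, limma adjusted p = 5.51e-07). Without C2 replicates 4 and 5, a comparison chosen after these values were seen, 16 Wnt genes were called between C1 and C2, 5 higher and 11 lower, and 17 between NC1 and C2. The oviduct epithelium list of 8 genes lay between 2.66 and 3.01 at NC1, 2.86 and 3.58 at C1 and 4.64 and 4.92 at C2, with Pax8 well above background on no array. Of its 6 tested genes, the keratins Krt8 (1.30) and Krt18 (1.76) rose from C1 to C2, whereas Epcam (-1.05, limma adjusted p = 0.000934) and Tppp3 (-1.01, adjusted p = 0.00245) fell. Ovgp1 gained 3.32 between NC1 and C2 (SE 0.88, limma adjusted p = 0.00347), a call with overlapping stages. Its gain of 2.28 from C1 was not called (adjusted p = 0.0343). Its C2 values were 2.03, 0.1, -0.33, 3.06 and 2.73, beside -3.66 to 0.97 on the C1 arrays. Cdh1 was called in no comparison. The luteal list of 7 genes lay between 6.56 and 7.16 at NC1, 7.26 and 7.62 at C1 and 7.95 and 8.42 at C2, with 3 of its 4 tested genes called higher at C1 than at NC1 (background 1.75%), as Sfrp4 was. From C1 to C2, Akr1c18, which breaks down progesterone, rose by 5.16, whereas Prlr, the prolactin receptor, fell by 1.45 (limma adjusted p = 2.66e-05). The hormone receptors Lhcgr and Ptgfr, not tested for lack of signal at NC1, had means of -1.13 ± 0.68 and 0.47 ± 0.77 at C1 and of -3.96 ± 0.60 and -1.20 ± 0.71 at C2 (SD, n = 5). The red blood cell list of 6 genes lay between 6.20 and 8.78 at NC1, 3.39 and 5.44 at C1 and 3.31 and 4.66 at C2. The leukocyte list of 7 genes and the endothelium list of 6 genes lay between 1.63 and 2.60 and between -0.58 and 0.79 over all arrays, sums that follow their brightest genes. Of the 3 and 2 tested genes in these lists, Csf1r, a macrophage receptor, was called between NC1 and C2, with a rise of 1.23 (limma adjusted p = 0.000596), and Cdh5, an endothelial cadherin, higher at C2 than at C1 (1.5, adjusted p = 0.000125), while Emcn, another endothelial gene, was well above background on 4 C1 arrays and on no C2 array. The part of these cells in the results was not tested.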

How the data were processed

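Gene expression in mouse cumulus cells was measured with 1-colour Agilent arrays, 5 per stage. Per the labels, the authors extracted the array images with Agilent Feature Extraction 10.5.1.1, where the file headers give 10.7.1.1. The deposited scanner files hold the processed signal intensity of each spot, already background-corrected. The deposited table of 20855 present probes holds the authors' log2 values, scaled to the array median. Spots called outliers were left out, spots of a probe were averaged, log2 was taken and the array's median over the 17323 tested probes was subtracted. A probe was tested when well above background in at least 4 of 5 arrays of each stage. Of 39429 gene probes, 26049 were named through RefSeq accessions and 2776 by the deposited table.

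One linear model over the 15 arrays was fitted with limma 3.58.1 in R 4.3.3 (moderated variances, two-sided contrasts, Benjamini-Hochberg over all tested probes, threshold 0.01), after it had been tested on simulated data. A fold written "at least" sets the bright stage's mean against, on each dim array, the higher of the probe's reading and the lowest signal well above background.

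The genes and lists were chosen with earlier results of these data known. Every gene of the rule was accounted for, with array values for those called with a log2 difference of at least 1 and those with a bound. In the pathway lists, up to 4 genes per list were named by size of change among called genes whose stages did not overlap. Jun, Ctbp1, Scrib and Cby1 were named beside them after their values were seen, and were not followed one by one under the alternatives. Untested genes of these lists were also named after their values were seen. The arrays lay on 4 slides, each with all 3 stages. Same-numbered arrays did not deviate together (correlations from -0.242 to 0.348 over 15 pairs), so replicate numbers were not used to pair them. The alternatives were other scalings, background corrections, filters, tests, blocks and probes, and omission of each array.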

Additional observations from a re-analysis of the deposited data

Results flagged for a closer look

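Within each stage, the highest or lowest array was set against the rest of its 5 for the 38 genes, and 7 values in 114 groups stood apart, where chance marks about 1 group in 20. At C1, replicate 4 was high for Fzd1 (-0.24, the others from -1.95 to -1.55) and for Lrp6 (2.84, the others from 2.00 to 2.18). Dkk3 was low in C1 replicate 5 (0.39, the others from 0.92 to 1.07), and Wnt6 was low in C1 replicate 2 (-0.47, the others from 0.38 to 0.66). At NC1, Wnt5a was high in replicate 1 (-2.83, the others from -3.77 to -3.59) and Wnt6 was low in replicate 2 (-0.42, the others from 0.06 to 0.24). At C2, Fzd2 was low in replicate 3 (-1.32, the others from -1.01 to -0.98).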

How the results depend on the processing

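Over all alternatives run, no difference of a tested Wnt gene changed its direction while called. Of the 16 genes called between C1 and C2, 10 kept their call under all alternatives and 6 lost it under at least 1; of the 19 called between NC1 and C2, 11 kept it; of the 3 called between NC1 and C1, 2 did. With spike-in scaling, 12 genes were called between NC1 and C2 in place of 19, and of the wider pathway 16 in place of 29 between C1 and C2 and 16 in place of 29 between NC1 and C2; the cause was not tested. With all probes present in at least 1 stage, 4 genes of the wider pathway were called between NC1 and C1 in place of 2, more genes being tested. With each array left out in turn, the called Wnt genes numbered 17 to 22 over the 3 stages, 2 to 4 between NC1 and C1, 16 to 17 between C1 and C2 and 15 to 20 between NC1 and C2. The wider pathway had 2 to 3, 24 to 29 and 27 to 31 calls in these comparisons, and 3 to 4 Wnt genes were well above background on every array of 1 stage and on none of another, against 3 with all arrays. With the replicate number as a block, 20, 3, 16 and 18 Wnt genes were called over the 3 stages, between NC1 and C1, between C1 and C2 and between NC1 and C2; with the slide as a block, 18, 3, 16 and 17. Wnt11 lost its call between NC1 and C2 under the replicate block (adjusted p = 0.0144), and no other Wnt gene did. Without C2 replicates 4 and 5, chosen after seeing the data, the same 16 genes were called between C1 and C2, and Dvl2 (adjusted p = 0.0216) and Wnt11 (adjusted p = 0.0702) lost their calls between NC1 and C2, as did Dkkl1 between NC1 and C1 (adjusted p = 0.0119). Within the 4 slides, all 16 genes called between C1 and C2 kept their direction on each slide, as did 18 of the 19 called between NC1 and C2, Lrp6 being the exception. Normexp correction used the median spot signal in place of the mean. The scan date as a block was not run, since all arrays share it. Dim signal limits Wnt7b, Wnt10a, Wnt10b, Fzd5, Fzd9, Rspo1, Rspo2, Sfrp1 and Sfrp2, for which changes below background were not detectable.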
